A study of Mus musculus with 20 samples.

Results

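Fibroadipogenic progenitors sorted from the hindlimb muscle of mice carrying a pancreatic tumour were compared with progenitors of sham-operated mice at day 21. The comparison uses 6 of the 20 libraries of the series, 3 from tumour-bearing mice (KPC) and 3 from controls, and takes in every gene of the day 21 count table. All mice were male C57BL/6J, and their age is not given in the sources used here. For the KPC group, 2000000 cells of the KPCY line, grown from a mouse pancreatic tumour, were injected in 50 µL into the pancreas, while the controls had sham surgery. All tumours therefore came from 1 line. Both groups were sorted freshly, without culture, for live nucleated cells that carried SCA-1 and lacked CD31, CD45 and α7-integrin, which sets aside endothelial cells, leukocytes and muscle stem cells. Each library is labelled as a separate biological replicate, and the series is about pancreatic cancer cachexia, the loss of muscle and fat that accompanies this tumour.

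Fibroadipogenic progenitors are mesenchymal cells that lie between muscle fibres and around vessels. They build much of the collagen of resting muscle, send trophic and inflammatory signals to muscle stem cells and leukocytes after injury, and can turn into fibroblasts or fat cells. In cachexia, circulating cytokines of the IL-6 and TNF families and glucocorticoids act on muscle and fat, and IL-6 signals through gp130, JAK kinases and STAT3 while TNF and IL-1 signal through NF-kappaB.

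Library totals were 21679227 to 26434933 counts in the controls and 15727923 to 20772441 counts in KPC. Ly6a, which encodes the SCA-1 that the gate selects for, lay at 1069 to 1194 CPM (counts scaled to a common library total, with TMM factors) in controls and 1064 to 1182 CPM in KPC, and Pdgfra, a receptor that marks these progenitors and is not part of the gate, at 1334 to 1423 and 1386 to 1611 CPM. Neither was called, with log2 fold changes, KPC over control, of 0.00 ± 0.11 and 0.09 ± 0.11 (SE). Fold changes are given on this log2 scale with their SE throughout, and rose or fell is written only of genes called in edgeR (defined with the counts of calls). Pecam1, which encodes the CD31 that the gate selects against, went against the label. It lay at 19.2, 19.7 and 15.02 CPM in control replicates 1 to 3 and 142, 84.3 and 37.8 CPM in KPC replicates 1 to 3 and rose (2.30 ± 0.51, adjusted p 0.0463), a call lost without any 1 control or KPC replicate 2, with no filter on low counts and in limma-voom. Ptprc, which encodes CD45, and Itga7, the α7-integrin gene, were not called (2.80 ± 1.31 and 0.70 ± 0.47), and both turned to the other sign with an endothelial covariate, defined with the markers (-5.28 and -1.91). The first principal component held 48.8% of the variance and set all controls (-41.9 to -33.9) apart from KPC replicates 1 to 3 (31.3, 62.0 and 20.2), and the second, with 22.3%, set KPC replicate 1 (56.5) apart from the rest. Markers of other cell types were mostly highest in KPC replicate 1. The summed level of 12 endothelial markers was 107 to 115 CPM in controls and 751, 415 and 203 CPM in KPC replicates 1 to 3. In edgeR 8 of the 12 rose (2, 1 and 2 without control replicates 1 to 3, 4 without KPC replicate 2), 66.7% called against 12.5% of all genes. DESeq2 called 12 of them higher and limma-voom 4. Summed macrophage markers were 15.3 to 28.1 CPM in controls and 102, 40.6 and 23.1 CPM in KPC, myofibre markers 34.6 to 63.1 against 636, 118 and 58.7 CPM, and neutrophil markers at most 2.03 against 20.4, 5.53 and 2.31 CPM. Glial markers were 54.2 to 63.5 against 172, 83.5 and 49.1 CPM. KPC replicate 3 thus lay inside the control range for the macrophage and myofibre sums and below it for the glial sum. Of these lists 1 of 9 tested macrophage and 1 of 7 tested glial markers rose in edgeR, and the myofibre and neutrophil markers did not pass the test. Summed erythroid markers were 0.378, 2.68 and 0.894 CPM in controls and 11.4, 13.9 and 6.84 CPM in KPC, and 1 of the 2 tested, Alas2 of haem synthesis, rose (2.72 ± 0.54, edgeR adjusted p 0.00847). Summed lymphocyte markers were at most 0.0923 CPM in controls and 3.79, 0.0636 and 0.241 CPM in KPC. The lymphocyte genes Cd3e, Cd3d and Cd4, the epithelial genes Krt8, Krt18 and Cldn4 and the 4 haemoglobin genes had no count in any of the 6 libraries. Counts of close copies are uncertain here, so the haemoglobin zeros do not show absence. These sums stand beside 74674 to 82557 CPM for 7 progenitor markers in controls and 79244 to 90914 CPM in KPC. The part of these other cell types in the results was not tested. An endothelial covariate, the mean log2 CPM of the 12 endothelial markers in each library, was added to the fit as an alternative. It was 2.78 to 2.89 in controls and 5.62, 4.75 and 3.79 in KPC replicates 1 to 3, with no overlap between the groups. A call lost or a sign turned with it therefore cannot tell endothelial cells and the tumour apart. The leading number of the library codes also differs fully between the groups, and what it stands for is not stated, so a batch behind it and the tumour cannot be told apart. In bulk RNA, fewer cells of a type and less RNA per cell cannot be told apart either.

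The progenitors of tumour-bearing mice showed a broad change. Of 13154 genes tested in edgeR, 12.5% were called at an adjusted p under 0.05, 839 higher (6.38% of the genes tested) and 804 lower (6.11%) in KPC, with a median log2 fold change over all genes of 0.01. Among the called genes more of the rises than of the falls were large. Of them, 453 rose and 182 fell by more than 2-fold, and 159 rose and 27 fell by more than 4-fold. In 33.2% of the genes tested the 3 KPC values did not overlap the 3 control values. With library size alone as the scaling, the calls split into 1058 higher and 613 lower (63.3% higher, against 51.1% with TMM). The endothelial covariate left 228 calls, 195 of them among the 1643. Without control replicates 1, 2 and 3 the count was 717, 766 and 853, and it was 2644 without KPC replicate 1.

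**Figure D1:**
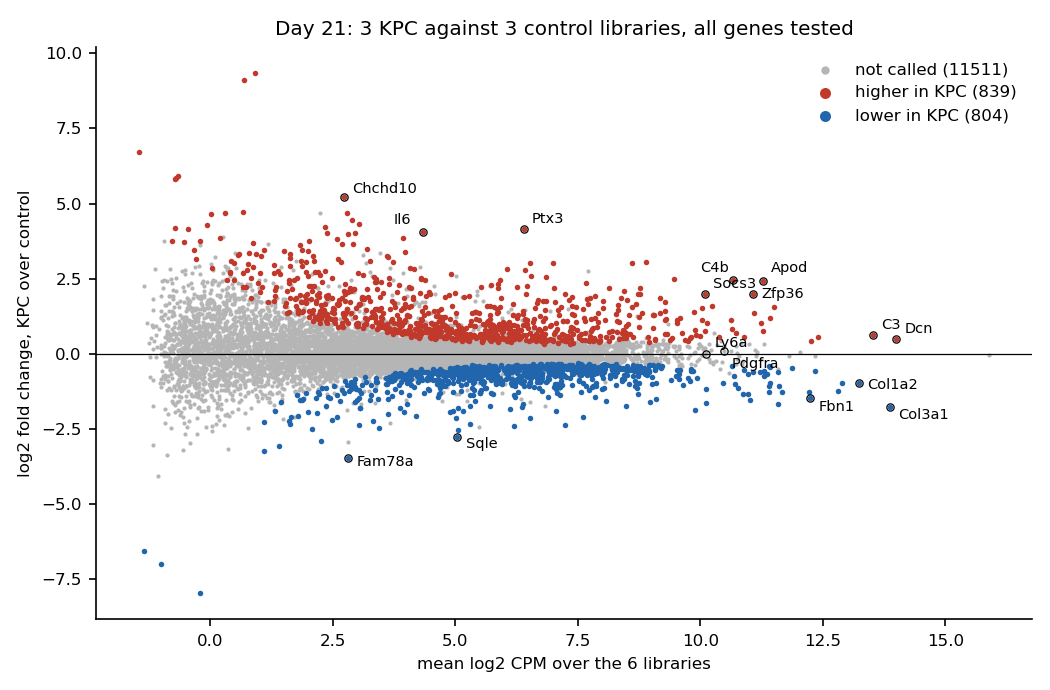
Log2 fold change, KPC over control, against mean log2 CPM for the 13154 genes tested at day 21, with called genes in red (839 higher) and blue (804 lower). Ptx3 and Il6 stand near 4 on the vertical axis, Ly6a and Pdgfra near 0, and the abundant collagen gene Col3a1 at -1.76 ± 0.31.

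As a share of all counts, the genes called lower lost more than the genes called higher gained. Shares add up to the total of a library, so genes not called took up the rest. This is not a net loss of messenger. The 804 genes called lower made up 27.05 ± 0.66% of the counts in controls (SD, n = 3) and 15.3 ± 2.37% in KPC (SD, n = 3), while the 839 called higher went from 9.66 ± 0.065% to 18.98 ± 2.09%. The 44 collagen chain genes alone held 7.77, 6.80 and 8.23% of the counts in the controls and 4.43, 2.84 and 3.33% in KPC replicates 1 to 3. Every KPC library lay below every control for collagen. The 56 complement, coagulation and acute phase genes in the table went from 1.97 ± 0.11% to 3.30 ± 0.19%, and the 84 cytosolic ribosomal protein genes from 2.54 ± 0.30% to 3.11 ± 0.09%. For the collagen and ribosomal shares the exact permutation test over libraries gave a two-sided p of 0.10 each. This is the smallest that 3 libraries a side allow, so the test cannot mark a difference. The called genes were chosen by the same contrast and the complement list with earlier results of these data known, so no p is given for their shares.

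**Figure D2:**
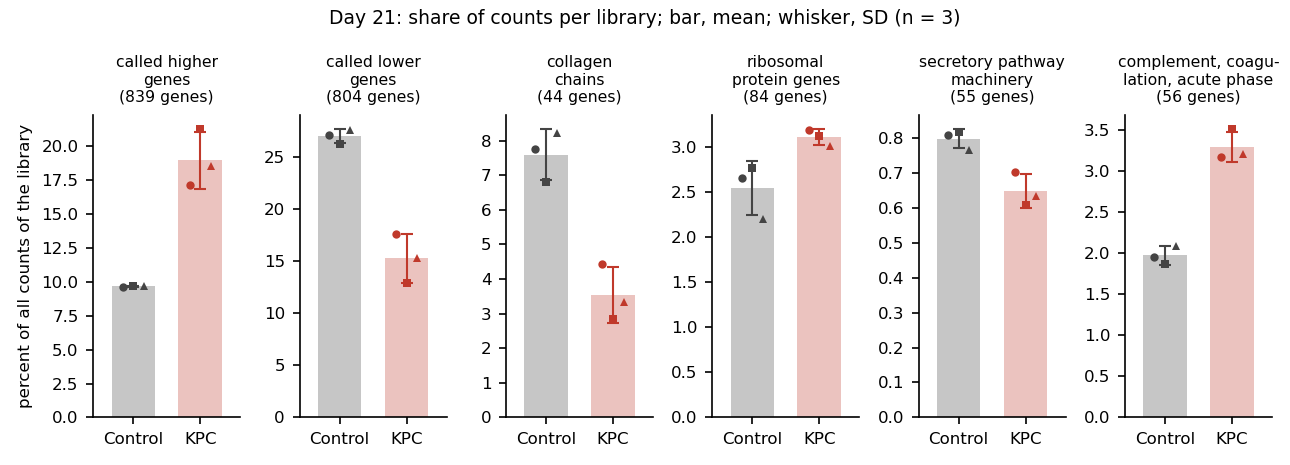
Percent of all counts of each library that fell on each gene class, with points for the 3 libraries of a group (circle, square and triangle for replicates 1 to 3), bars for the mean and whiskers for the SD. Collagen chains drop from between 6.80 and 8.23% in controls to between 2.84 and 4.43% in KPC, and the complement, coagulation and acute phase class does the reverse.

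The 12 called genes with the largest gain in CPM were Dcn, C3, Apod, Fos, Zfp36, C4b, Gpx3, Serping1, Txnip, Egr1, Eef1a1 and Socs3, among them complement genes (C3, C4b and Serping1) and immediate early genes (Fos, Egr1 and Zfp36). Apod, a lipid-binding lipocalin, lay at 766, 849 and 698 CPM in control replicates 1 to 3 and at 2603, 5383 and 4539 CPM in KPC replicates 1 to 3 (log2 2.44 ± 0.24, SE). Zfp36, which encodes an RNA-binding protein that destabilises cytokine messages, lay at 885, 967 and 769 CPM and 3578, 3611 and 3161 CPM (1.98 ± 0.13). The lowest KPC value of each was over 3 times the highest control. Gpx3, a secreted glutathione peroxidase, rose from 1659 ± 94.6 to 3817 ± 568 CPM (1.20 ± 0.13), and Serping1, the C1 inhibitor of complement, from 4368 ± 81.9 to 6478 ± 383 CPM (0.57 ± 0.11). Dcn, the small proteoglycan decorin and the gene with the largest gain in all, rose from 13569.6 ± 939 to 19066 ± 2858 CPM (0.49 ± 0.14, adjusted p 0.0403). The 12 with the largest loss were all genes of extracellular matrix or the cell surface. They were the collagen genes Col3a1, Col1a2, Col1a1, Col6a2, Col6a1 and Col5a1, then Fn1, the fibronectin gene, Fbn1, Sparc, Hspg2, Tnxb and Pi16. These 12 together went from 9.48 ± 0.79% of the counts to 4.12 ± 1.04%. Pi16, a marker of an adventitial fibroblast state, fell from 3807 ± 331 to 1581 ± 342 CPM (-1.27 ± 0.16). Among these 24 genes the endothelial covariate ended the calls of Dcn, C3, Serping1, Txnip, Egr1, Eef1a1, Col1a2, Fn1, Fbn1, Col6a1, Hspg2, Pi16 and Tnxb. Leaving out 1 library ended those of Dcn and Eef1a1 without control replicate 1, 2 or 3 or KPC replicate 2 or 3, C3 without control replicate 1 or 2, Serping1 and Tnxb without control replicate 1, Txnip without control replicate 2 or 3.

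Most of the largest fold rises belonged to genes that were nearly silent in the controls. Besides Ptx3, Il6 and Cish, described with their families, the 10 largest were in Chchd10, Tmem252, Selp, Lrg1, Csf2rb, Rgs16 and Kng2. Kng2, a kininogen gene with close copies, lay at 0.661, 0.745 and 1.07 CPM in controls and 8.48, 18.7 and 12.5 CPM in KPC (3.99 ± 0.37). Tmem252, a membrane protein gene, lay at 0.739, 0.326 and 0.477 CPM and 14.4, 18.1 and 7.93 CPM (4.68 ± 0.42). Both kept the call in every alternative, with KPC replicate 2 highest. Selp, the P-selectin gene of activated endothelium and platelets, lay at 0.739, 0.326 and 0.874 CPM and 17.02, 19.1 and 7.12 CPM (4.44 ± 0.46), and Lrg1, an acute phase glycoprotein, at 1.32, 0.605 and 0.397 CPM and 29.3, 12.4 and 5.69 CPM (4.33 ± 0.73). The KPC values of Lrg1 descended in the same order as the summed endothelial markers. Among the largest falls were those of Fam78a, Rnf112, Flrt1, Syt13, Sqle, Kcng4, Prrt4 and Fam167a. Syt13, a synaptotagmin, lay at 7.62, 9.08 and 8.02 CPM and 1.89, 0.437 and 0.908 CPM (-2.91 ± 0.44). Prrt4, a membrane protein gene, lay at 17.03, 20.5 and 17.4 CPM and 4.14, 2.69 and 2.96 CPM (-2.48 ± 0.23). Neither overlapped between the groups, and both kept the call in every alternative. The covariate ended the calls of Chchd10, Selp, Lrg1, Csf2rb, Rgs16, Fam78a, Rnf112, Flrt1, Kcng4 and Fam167a. Leaving out 1 library ended those of Chchd10, Rnf112 and Flrt1 without control replicate 1, 2 or 3, Lrg1 without control replicate 2, Kcng4 and Fam167a without control replicate 1, 2 or 3 or KPC replicate 3.

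In the IL-6 family 2 of 5 ligand genes were called, 1 higher and 1 lower. Il6 itself (chromosome 5, 30013114 to 30019981, mm10) lay at 1.48, 2.61 and 2.9001 CPM in controls and 40.1, 35.7 and 38.7 CPM in KPC, a log2 fold change of 4.04 ± 0.23 with an adjusted p of 3.0e-06. All 3 KPC values were more than 10 times the highest control, and they were close to each other. Lif, which encodes a cytokine of the same family, moved the other way, from 30.2, 32.3 and 29.6 CPM to 14.97, 11.1 and 13.5 CPM (-1.22 ± 0.16, adjusted p 5.7e-04). Il11 and Clcf1 were not called (-0.34 ± 0.93 and 0.10 ± 0.34). Among 16 receptor and JAK/STAT genes 6 rose and 10 were not called (median 0.13), 37.5% called against 12.5% of all genes. Osmr, the oncostatin M receptor, lay at 62.9, 73.8 and 76.6 CPM and 189.96, 311 and 288 CPM (1.89 ± 0.17). Lifr, the LIF receptor, lay at 159, 195 and 152 CPM and 266, 449.8 and 378 CPM (1.11 ± 0.18). Il6ra (the IL-6 receptor, 0.91 ± 0.16), Cntfr (the CNTF receptor, 0.74 ± 0.13), Stat3 (0.85 ± 0.15, overlapping Stat5a) and Jak3 (2.16 ± 0.48) also rose. The shared chain gp130, Il6st, was at 607 to 677 CPM in controls and 691 to 839 CPM in KPC and was not called (0.23 ± 0.11). Of 27 feedback inhibitors 4 rose and 1 fell, 18.5% called. Socs3, the suppressor that IL-6 induces, lay at 440.2, 527 and 354 CPM and 1836, 1853 and 1533 CPM (1.98 ± 0.15). Cish, a suppressor best known downstream of STAT5, lay at 1.24, 0.605 and 0.795 CPM and 17.1, 13.4 and 13.4 CPM (4.03 ± 0.32). For both genes the groups were far apart and KPC replicates 1 to 3 close together. The endothelial covariate ended the calls of Lif, Il6ra, Stat3 and Cntfr in this family and turned the sign of Jak3 to -0.11. Jak3 alone among the genes named here lost its call without a control library, whichever of the 3 was left out.

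Il6 and several NF-kappaB targets were low in the controls of day 21 against controls of other days. The control levels at days 14 and 26, each scaled within its own table, were 29.000 to 46.97 CPM in the day 14 controls and 12.6 to 39.3 CPM in the day 26 controls for Il6. For Ptx3 they were 139.98 to 152 CPM in the day 14 controls and 51.9 to 148 CPM in the day 26 controls, and for Nfkbia 204 to 291 CPM in the day 14 controls and 319 to 533 CPM in the day 26 controls. The KPC values of day 21 thus lay inside the range of controls from other days for Il6 and Nfkbia and overlapped it for Ptx3, while for Osmr the other controls stayed below KPC (104 to 141 CPM in the day 14 controls and 77.6 to 94.7 CPM in the day 26 controls). For Cish the same held (3.297 to 6.48 CPM in the day 14 controls and 1.28 to 2.57 CPM in the day 26 controls).

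Of 24 NF-kappaB subunits and targets 9 rose and 15 were not called (median 0.29), 37.5% called against 12.5% of all genes. Ptx3 (chromosome 3, 66219910 to 66225805), a secreted pattern recognition protein, lay at 7.58, 10.01 and 9.61 CPM in controls and 151, 176 and 152 CPM in KPC (4.14 ± 0.14, adjusted p 2.9e-08), the smallest p of any gene the naming rule picked. The inhibitor genes rose with it. Nfkbia, which encodes IκBα, lay at 132, 109 and 112 CPM and 408, 380.1 and 407 CPM (1.76 ± 0.11, adjusted p 6.8e-06), and Nfkbiz, which encodes the nuclear cofactor IκBζ, at 35.5, 56.1 and 49.98 CPM and 219.6, 217 and 203 CPM (2.18 ± 0.15). Tnfaip3, which encodes the A20 deubiquitinase, rose by 1.98 ± 0.14 on the log2 scale, Tnfaip6, a hyaluronan-binding protein, by 1.78 ± 0.14, and Icam1, an adhesion molecule, by 1.13 ± 0.13. In none of these did the groups overlap. The subunit gene Rela was at 105 to 112 CPM in controls and 101 to 129 CPM in KPC and was not called (0.11 ± 0.11). All 6 of the genes named here as rising kept the call under the endothelial covariate and without each library in turn.

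The promoters of Il6, Nfkbia and Ptx3 are shown because they hold motifs that this signalling is known for. Each run is the 250 bases before the transcription start in RefSeq (GRCm38.p6), 5′ to 3′ on the gene's own strand, with matches in capitals (both C/EBP matches and the second of Nfkbia read on the reverse strand). They lie at chr5:30012864-30013113, plus strand (Il6), chr12:55492648-55492897, minus strand (Nfkbia) and chr3:66219637-66219886, plus strand (Ptx3). The letters searched on both strands were GGGANTTTC for NF-kappaB, TTGCNCAA for C/EBP, TGANTCA for AP-1 and CCAAT, and no match overlaps another. Il6 holds an AP-1 match whose first base is 249 bases before the start, a C/EBP match at 128, a CCAAT match at 106 and an NF-kappaB match at 44. Nfkbia holds NF-kappaB matches at 113 and 28, and Ptx3 a C/EBP match at 57. Of the 9967 tested genes with a promoter in the table, 0.843% hold the NF-kappaB letters, 2.03% those of C/EBP and 4.25% those of AP-1. Among the 625 called higher the shares were 0.96, 3.20 and 6.24%, and among the 595 called lower 0.336, 2.35 and 4.87%. Of the 9 called NF-kappaB subunits and targets 7 have a promoter in the table. Of these 7, 1 holds the NF-kappaB letters, 1 those of C/EBP and 2 those of AP-1, so most lack them. A match describes the letters in this window and not binding.
Il6: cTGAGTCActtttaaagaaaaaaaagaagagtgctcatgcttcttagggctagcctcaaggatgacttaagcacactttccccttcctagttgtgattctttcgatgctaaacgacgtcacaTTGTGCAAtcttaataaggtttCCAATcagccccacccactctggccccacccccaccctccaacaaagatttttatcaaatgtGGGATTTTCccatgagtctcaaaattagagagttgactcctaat
Nfkbia: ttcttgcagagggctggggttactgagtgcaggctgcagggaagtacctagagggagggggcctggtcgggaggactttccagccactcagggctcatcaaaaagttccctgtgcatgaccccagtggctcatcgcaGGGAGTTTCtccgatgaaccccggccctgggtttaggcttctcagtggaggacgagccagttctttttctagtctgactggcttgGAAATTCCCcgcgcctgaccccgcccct
Ptx3: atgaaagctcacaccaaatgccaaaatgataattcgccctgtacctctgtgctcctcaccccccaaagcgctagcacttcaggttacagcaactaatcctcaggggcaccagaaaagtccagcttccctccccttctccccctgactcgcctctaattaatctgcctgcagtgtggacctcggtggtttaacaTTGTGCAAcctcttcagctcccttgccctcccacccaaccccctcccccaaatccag

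Transcription factors of the immediate early and stress classes rose widely. Of 40 tested, 24 rose and 16 were not called (median 0.83), 60% called against 12.5% of all genes. With the endothelial covariate 11 were called higher. Fos, a subunit of AP-1, lay at 1461, 1563 and 1372 CPM in controls and 4496, 4244 and 4199 CPM in KPC (1.56 ± 0.11). Junb, its partner, lay at 613, 658 and 521 CPM and 2075, 1712 and 1661 CPM (1.604 ± 0.13, with exons that overlap Prdx2). The KPC values of Fos were also above all 7 controls of the other days (573 to 701 CPM in the day 14 controls and 2011 to 2822 CPM in the day 26 controls). The C/EBP factors Cebpb and Cebpd, which act in acute phase and adipocyte gene control, rose by 1.495 ± 0.17 and 1.39 ± 0.14. Myc, the growth regulator, lay at 93.7, 87.3 and 98.3 CPM and 332, 353 and 324 CPM (1.85 ± 0.10, adjusted p 2.7e-06). Nfil3, a bZIP repressor linked to the clock and to IL-3 signalling, rose by 1.75 ± 0.14, and Maff, a small MAF protein, by 1.29 ± 0.13. Klf9, a glucocorticoid-responsive factor, rose by 1.32 ± 0.21 and lost the call with the endothelial covariate.

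**Figure D3:**
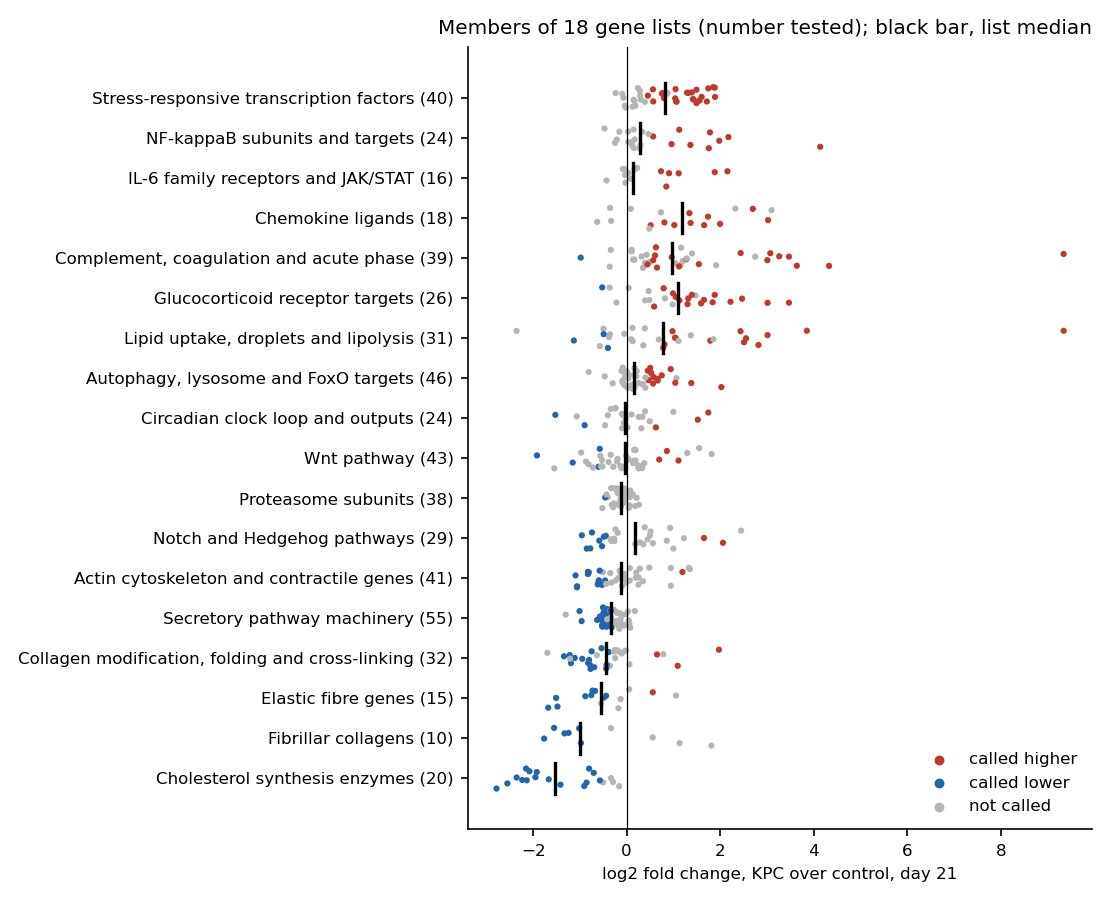
Log2 fold change, KPC over control, of every tested member of 18 gene lists (number tested in brackets), coloured by call, with a black bar at the list median. Medians run from -1.54 for cholesterol synthesis enzymes to 1.18 for chemokine ligands, and the median over all genes tested is 0.01.

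Of 33 receptors for other cytokines 8 rose and 1 fell (1 higher with the endothelial covariate), 27.3% called against 12.5% of all genes. Il17ra, the shared IL-17 receptor chain, lay at 54.2, 55.5 and 65.2 CPM and 102, 127 and 114 CPM (0.97 ± 0.12) and kept the call in every alternative. Ifngr1, the interferon-gamma receptor, rose by 0.85 ± 0.13, and Tnfrsf1a, the main TNF receptor, by 0.60 ± 0.12. Of 23 genes of Toll-like and IL-1 receptor signalling 6 rose and 2 fell, 34.8% called. Myd88, the adaptor that both receptor families share, lay at 53.2, 57.5 and 53.6 CPM and 76.9, 98.1 and 99.7 CPM (0.74 ± 0.12, overlapping Acaa1a), Lbp, which binds lipopolysaccharide, rose by 0.67 ± 0.13, and Irak3, an inhibitor of this pathway, by 0.66 ± 0.12. Tlr4, the lipopolysaccharide receptor, was at 42.2, 43.8 and 40.8 CPM and 57.5, 99.1 and 68.9 CPM (0.83 ± 0.17), while Tlr2 was not called (-0.05 ± 0.14). The adaptor Ticam1 fell (-0.69 ± 0.15). With the covariate Tlr4, Irak3, Lbp, Ticam1, Tnfrsf1a and Ifngr1 lost the call. Leaving out 1 library ended those of Tlr4 without control replicate 1 or 3, Ticam1 without control replicate 1 or 2 or KPC replicate 3. Without control replicate 1 the Toll-like list had 3 higher calls.

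Of 18 chemokine ligands 10 rose and 8 were not called (median 1.18), 55.6% called against 12.5% of all genes. The higher calls numbered 5 without control replicate 1, 6 without control replicate 3, 6 without KPC replicate 2 and 3 with the endothelial covariate. Cxcl12, which retains leukocytes and progenitors in stromal niches, lay at 251, 278 and 231 CPM and 571, 705 and 653 CPM (1.34 ± 0.12), above the other controls (318 to 357 CPM in the day 14 controls and 239.6 to 279 CPM in the day 26 controls). Cxcl1, a neutrophil chemoattractant, lay at 42.6, 67.6 and 42.5 CPM and 167, 156 and 187 CPM (1.74 ± 0.18), but controls of the other days reached these levels (165 to 220.1 CPM in the day 14 controls and 124 to 259 CPM in the day 26 controls). Ccl7 rose by 1.999 ± 0.18 while its neighbour Ccl2 was not called (0.09 ± 0.19). Of 39 complement, coagulation and acute phase genes 17 rose and 1 fell (median 0.97), 46.2% called. The higher calls numbered 7 under the covariate and 11 without control replicate 1. C4b, a complement component whose close copy C4a makes its counts uncertain, lay at 453, 472 and 605 CPM and 2017, 3609 and 2667 CPM (2.44 ± 0.21). Serpina3n, an acute phase protease inhibitor with near-identical paralogs, lay at 74.7, 93.8 and 91.1 CPM and 456, 1029.95 and 605 CPM (3.01 ± 0.31). C2, which forms the C3 convertase with C4b, rose by 1.54 ± 0.15 (overlapping Zbtb12) and Gas6, a ligand of TAM receptors, by 1.12 ± 0.12. Each of these named risers kept the call under every alternative. Cd55, which shields cells from complement, fell (-0.98 ± 0.14) and lost the call with the covariate.

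**Figure D4:**
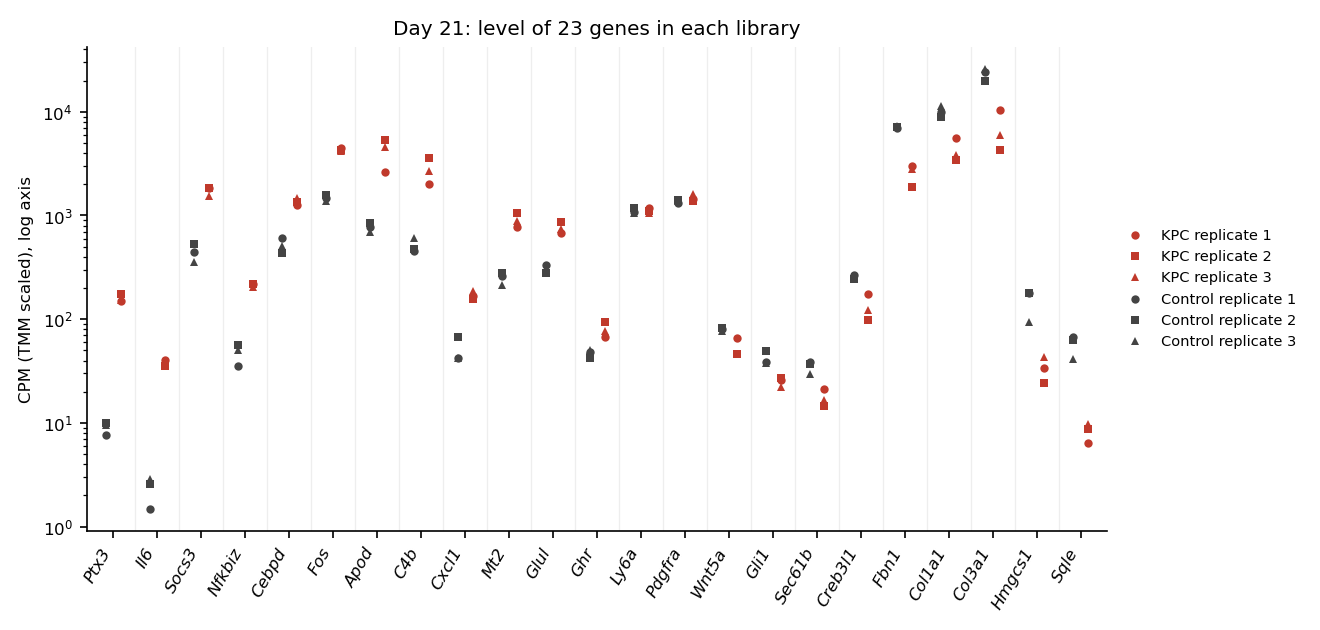
Level of 23 genes in each of the 6 libraries (CPM, log axis), with controls in grey and KPC in red and a marker shape for each replicate number. The KPC points lie above all controls from Ptx3 to Ghr, overlap them for Ly6a and Pdgfra, and lie below them from Wnt5a to Sqle.

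In the IGF axis genes of binding proteins and receptors were called in both directions, and the ligand genes were not called. Igf1 was at 145 to 160.03 CPM in controls and 77.7 to 165 CPM in KPC (-0.29 ± 0.23) and Igf2 at 27.3 to 35.1 and 25.1 to 45.4 CPM (0.25 ± 0.20). Of 19 genes 8 rose and 3 fell (median 0.48), 57.9% called against 12.5% of all genes. With the endothelial covariate 1 was called higher and 1 lower. Igfbp3, which carries IGFs in blood, lay at 193, 212 and 245 CPM and 954, 1966 and 698 CPM (2.48 ± 0.41), with KPC replicate 2 highest. Igfbp5, a matrix-bound IGF binding protein, went the other way, from 2577, 3055 and 2998 CPM to 1282, 898 and 1201 CPM (-1.35 ± 0.15), and so did Igfbp6 (-0.74 ± 0.11). Irs2, the docking protein of insulin and IGF receptors, lay at 40.2, 50.4 and 52.7 CPM and 84.9, 143 and 127 CPM (1.31 ± 0.19), and Ghr, the growth hormone receptor, rose by 0.76 ± 0.14. Igf2r, which clears IGF2, fell (-0.69 ± 0.12). Igfbp5 and Irs2 kept the call in every alternative. The covariate ended the calls of Ghr, Igfbp3, Igfbp6 and Igf2r, Igfbp3 also lost it without control replicates 1 or 2, and without either of these the list had 3 higher calls. Without KPC replicate 1 it had 5 lower calls.

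TGF-beta and BMP genes moved in both directions. In the TGF-beta, activin and myostatin axis 6 of 32 genes rose and 5 fell, 34.4% called against 12.5% of all genes. The higher calls were 0, 0 and 2 without control replicates 1 to 3 and 3 without KPC replicate 2 or 3. The lower calls were 3 without any 1 control. Fstl1, a secreted follistatin-like protein, lay at 3622, 3803 and 3669 CPM and 1971, 1382 and 1867 CPM (-1.09 ± 0.14) and Ltbp4, which binds latent TGF-beta in the matrix, at 3206, 3318 and 3116 CPM and 2009, 1784 and 2249 CPM (-0.67 ± 0.12). Smad7, an inhibitor that TGF-beta induces, rose by 0.67 ± 0.16. The ligand gene Tgfb1 was not called (-0.46 ± 0.16), nor was the receptor gene Tgfbr2 (-0.25 ± 0.11). In the BMP axis 5 of 27 genes rose and 4 fell, 33.3% called. Bmp4, a ligand, lay at 115, 127 and 101 CPM and 158, 243 and 238 CPM (0.90 ± 0.16), and Chrdl1, a secreted BMP antagonist, at 24.1, 39.4 and 41.6 CPM and 103, 117 and 111 CPM (1.65 ± 0.18). The BMP target Id3 rose by 1.56 ± 0.15 and the pseudoreceptor gene Bambi by 1.18 ± 0.21, while the antagonist gene Chrd and the procollagen protease gene Bmp1 fell (-0.74 ± 0.11 and -0.82 ± 0.13). Bmp4 and Chrdl1 kept the call in every alternative, and the covariate ended the calls of Ltbp4, Smad7, Fstl1, Id3, Bambi, Chrd and Bmp1. Leaving out 1 library ended those of Smad7 without control replicate 1, 2 or 3 or KPC replicate 2 or 3.

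Of 43 Wnt pathway genes 3 rose and 4 fell, 16.3% called against 12.5% of all genes, and DESeq2 called 8 lower. Dact2, an inhibitor of Wnt and TGF-beta signalling, lay at 192, 222 and 221 CPM and 81.2, 35.5 and 51.2 CPM (-1.92 ± 0.28) and kept the call in every alternative. Sfrp1, a secreted Wnt antagonist, rose (112, 128 and 118 CPM against 221, 225 and 205 CPM, 0.86 ± 0.10). The number of lower Wnt calls was 1 without control replicate 2 or 3 and 9 without KPC replicate 1, and that of higher calls was 1 without control replicate 1 or 3. Of 29 Notch and Hedgehog genes 2 rose and 8 fell, 34.5% called. Gli1, a target of Hedgehog signalling, fell (-0.74 ± 0.15), as did Jag1, a Notch ligand (-0.85 ± 0.13). Dll4 and Notch4, which endothelial cells are known to express, rose by 2.06 ± 0.38 and 1.66 ± 0.33, with KPC at 13.5, 14.6 and 5.97 CPM and 17.5, 13.5 and 7.07 CPM, and their controls were at 1.91 to 3.77 and 3.07 to 4.55 CPM. The lower calls of this list numbered 4, 2 and 2 without control replicates 1 to 3 and 3 and 5 without KPC replicates 2 and 3, and there were 4 higher calls without KPC replicate 3. Lost with the covariate were the calls of Sfrp1, Gli1, Dll4, Notch4 and Jag1.

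Among growth factors of the FGF, HGF, PDGF and VEGF families 10 of 40 genes rose and 3 fell. Of these 40 genes 32.5% were called, against 12.5% of all genes. Met, the receptor of HGF, lay at 6.69, 7.68 and 9.296 CPM and 17.2, 26.2 and 22.1 CPM (1.47 ± 0.21), and kept the call in every alternative. Fgf10, a ligand that supports adipogenesis, rose by 0.95 ± 0.18, and Fgf16 fell (-1.30 ± 0.23), both lost with the covariate. Vegfa was not called (-0.00 ± 0.14). The higher calls numbered 3, 5 and 6 without control replicates 1 to 3, and the lower calls 1 without control replicate 1 or 2 and 5 without KPC replicate 1.

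Of 10 fibrillar collagen genes 6 fell and 4 were not called (median -0.995), 60% called against 12.5% of all genes. Col3a1 (chromosome 1, 45311538 to 45349706), the type III chain, lay at 23909.5, 19891 and 25834 CPM in controls and 10343, 4259.9 and 5908 CPM in KPC (-1.76 ± 0.31, adjusted p 0.0107). Col1a1, which encodes the α1 chain of type I collagen, lay at 9855, 8894 and 11412 CPM and 5559, 3405 and 3805 CPM (-1.24 ± 0.18). In both genes KPC replicate 1 was the closest to the controls and KPC replicate 2 the farthest. The type V chains Col5a1, Col5a2 and Col5a3, which set fibril diameter, fell (-1.55 ± 0.24, -1.01 ± 0.14 and -1.33 ± 0.20). Of 27 network, beaded and membrane collagens 9 fell and 1 rose, 37.0% called. Among these Col6a2, of the beaded type VI collagen around cells, lay at 5151, 4247 and 4669 CPM and 1978, 983 and 1490.3 CPM (-1.66 ± 0.22), while Col4a1 of the basement membrane was not called (0.04 ± 0.13, overlapping Col4a2). Controls of days 14 and 26 were 16182 to 20469.7 CPM in the day 14 controls and 16531 to 25342 CPM in the day 26 controls for Col3a1 and 3237 to 3898 CPM in the day 14 controls and 3905 to 5010.3 CPM in the day 26 controls for Col6a2, all above the KPC values of day 21. Col3a1, Col1a1, Col5a1, Col5a3 and Col6a2 kept the call in every alternative, and the covariate ended the calls of Col5a2.

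Of 32 collagen modification, folding and cross-linking genes 15 fell, 3 rose and 14 were not called (median -0.43), 56.25% called against 12.5% of all genes. The lower calls numbered 2 with the endothelial covariate. Serpinh1, which encodes the collagen chaperone HSP47, lay at 1661, 1438 and 1515 CPM and 931, 489 and 603 CPM (-1.19 ± 0.21) and kept the call in every alternative. The hydroxylase genes Plod1 and P3h1 fell (-0.69 ± 0.10 and -0.75 ± 0.11). So did the glycosyltransferase gene Colgalt2 (-0.95 ± 0.11) and the cross-linking oxidase genes Loxl1 and Loxl2 (-0.80 ± 0.14 and -1.34 ± 0.17). Lox, the founding lysyl oxidase, went against them, from 153, 162 and 220.3 CPM to 427, 1097 and 580.1 CPM (1.97 ± 0.38). Of 55 genes of the secretory pathway 24 fell and 31 were not called (median -0.34), 43.6% called. Of the 55, 39 lay lower in every KPC library than in any control, as did 17.2% of all genes tested. Sec61b, a subunit of the translocon, lay at 38.4, 37.4 and 29.7 CPM and 21.2, 14.6 and 16.7 CPM (-1.01 ± 0.17), and Creb3l1, a transcription factor that drives secretory and collagen genes, at 269, 242 and 262 CPM and 176, 98.4 and 122 CPM (-0.96 ± 0.18). Copg1, of the COPI coat, fell (-0.50 ± 0.10). The number of secretory falls was 3, 7 and 14 without control replicates 1 to 3, 11 and 6 without KPC replicates 2 and 3, and 1 with the covariate. The calls of Lox, Loxl1, Colgalt2, Loxl2, P3h1, Plod1, Sec61b and Copg1 ended with the covariate. Lox lost its call without control replicate 1 or 2 as well, and with no filter on low counts.

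Of 15 elastic fibre genes 9 fell and 1 rose (median -0.55), 66.7% called against 12.5% of all genes. Fbn1, fibrillin-1, lay at 6931, 7204 and 7298 CPM and 2996, 1869.8 and 2825 CPM (-1.48 ± 0.17). Eln, elastin, lay at 956, 742 and 717 CPM and 374, 212 and 263 CPM (-1.51 ± 0.20). Mfap4, a microfibril protein whose exons overlap Mapk7, lay at 132, 134 and 116 CPM and 48.6, 29.4 and 41.5 CPM (-1.68 ± 0.16). No KPC value of these reached a control value of day 21. Of 22 basement membrane genes 7 fell, 1 rose and 14 were not called, 36.4% called. The lower calls numbered 2, 4 and 2 without control replicates 1 to 3, 3 without KPC replicate 3 and 4 with library size alone. The perlecan gene Hspg2 fell (-1.07 ± 0.13), as did the laminin gene Lamc1 (-0.56 ± 0.11). Among 35 proteoglycans and matricellular proteins 7 fell, 5 rose and 23 were not called (median -0.0087), 34.3% called. Without KPC replicate 1 the calls were 9 in each direction. Sparc, a collagen-binding glycoprotein, lay at 6876, 6364 and 7094 CPM and 3541, 2257 and 2625 CPM (-1.27 ± 0.16) and Vcan, versican, fell (-1.09 ± 0.14). The thrombospondin gene Thbs2 rose, from 436, 413 and 542 CPM to 830.4, 1214 and 1008 CPM (1.13 ± 0.15). The hyaluronan synthases parted, with Has1 at 46.6, 41.6 and 56.4 CPM and 174, 128 and 163 CPM (1.69 ± 0.15) and Has2 at 58.2, 88.3 and 77.7 CPM and 40.1, 21.5 and 29.8 CPM (-1.29 ± 0.23, overlapping Has2os). Without control replicates 1 to 3 the higher calls of this list were 2, 2 and 3, and 3 without KPC replicate 2. The covariate ended the calls of Fbn1, Hspg2, Lamc1 and Has2.

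Integrins, the matrix receptors, fell in 7 of 21 cases and rose in 3, 47.6% called against 12.5% of all genes. The integrin chain genes Itga9, Itgb7 and Itgb3 fell (-0.95 ± 0.12, -1.33 ± 0.18 and -0.74 ± 0.14) and lost the call with the covariate, while Itgb1, the common chain, was not called (-0.21 ± 0.10). The higher calls were 1, and the lower calls 4, without control replicate 1 or 3. Of 45 matrix proteases and inhibitors 4 rose and 5 fell, 20% called against 12.5% of all genes, where DESeq2 called 11 higher and 8 lower. Mmp3, stromelysin 1, lay at 71.3, 78.5 and 91.4 CPM and 171, 219.98 and 198 CPM (1.29 ± 0.13) and kept the call in every alternative, and Adamts1, which cleaves versican, rose by 0.89 ± 0.11 and lost the call with the covariate. Mmp2 was not called (-0.19 ± 0.12). The lower protease calls numbered 1 without control replicate 1 or 3 and 2 without KPC replicate 2 or 3, and the higher calls 2 without control replicate 1 and 12 without KPC replicate 1.

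Cholesterol synthesis fell along nearly the whole pathway. Of 20 enzymes 16 fell and 4 were not called (median -1.54), 80% called against 12.5% of all genes. Sqle (chromosome 15, 59315077 to 59331192), squalene epoxidase, lay at 68.02, 62.8 and 41.1 CPM in controls and 6.44, 8.74 and 9.79 CPM in KPC (-2.78 ± 0.22, adjusted p 3.4e-05), and it kept the call in every alternative. Hmgcs1, which makes HMG-CoA, lay at 179, 179 and 93.2 CPM and 33.99, 24.05 and 43.3 CPM (-2.15 ± 0.32, adjusted p 0.0085). In both of these genes control replicate 3 was the lowest control and still lay above every KPC library. Mvd, Fdps, Cyp51, Hsd17b7 and Dhcr7, which act at other steps, fell (-2.23 ± 0.29, -2.14 ± 0.27, -2.35 ± 0.27, -1.66 ± 0.21 and -1.41 ± 0.24). The 7 controls of days 14 and 26 had 48.9 to 82.7 CPM in the day 14 controls and 26.7 to 66.6 CPM in the day 26 controls for Sqle and 99.9 to 229.8 CPM in the day 14 controls and 78.5 to 158 CPM in the day 26 controls for Hmgcs1, all above the KPC values of day 21. The lower calls numbered 10 without control replicate 1 or 2 and 1, Sqle, with the endothelial covariate.

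The promoters of Hmgcs1 and Mvk are shown because they hold the CCAAT letters of NF-Y, a factor known to work beside SREBP-2 at sterol genes, and in Hmgcs1 a sterol response element. Mvk, mevalonate kinase, is named after its values were seen, and it fell from 28.3, 28.6 and 24.4 CPM to 19.4, 13.9 and 13.3 CPM (-0.80 ± 0.18, edgeR adjusted p 0.0130). The runs are the 250 bases before the RefSeq start (GRCm38.p6) at chr13:119690101-119690350, plus strand (Hmgcs1) and chr5:114444019-114444268, plus strand (Mvk), with CCAAT, its reverse ATTGG and the element in capitals and no overlap between matches. Hmgcs1 holds CCAAT matches whose first bases are 237, 176 and 45 bases before the start and the element (TCACNCCAC) at 137, and Mvk holds CCAAT matches at 173, 120, 67, 50 and 14. On either strand CCAAT is in 36.2% of the 9967 promoters and in 10 of 11 (90.9%) of the called cholesterol genes that have one in the table. The element is in 0.913% of all and in 1 of those 11. Neither share was tested.
Hmgcs1: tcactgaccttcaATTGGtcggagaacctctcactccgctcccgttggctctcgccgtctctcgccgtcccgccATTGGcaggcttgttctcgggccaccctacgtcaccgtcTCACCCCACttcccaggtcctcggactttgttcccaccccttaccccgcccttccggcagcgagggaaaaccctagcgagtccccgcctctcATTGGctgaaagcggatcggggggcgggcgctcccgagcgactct
Mvk: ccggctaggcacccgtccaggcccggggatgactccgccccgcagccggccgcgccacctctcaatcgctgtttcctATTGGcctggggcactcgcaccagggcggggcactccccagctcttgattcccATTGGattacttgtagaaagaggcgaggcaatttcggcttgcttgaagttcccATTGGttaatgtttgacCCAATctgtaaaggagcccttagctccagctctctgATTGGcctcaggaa

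Genes of sterol sensing, uptake and efflux moved in both directions, 7 of 30 lower and 7 higher. Of these 30 genes 46.7% were called, against 12.5% of all genes. Srebf2, the master regulator of sterol synthesis, lay at 284, 278 and 243 CPM and 146, 77.2 and 108 CPM (-1.28 ± 0.20). Every KPC value was below all controls of the series (217 to 246 CPM in the day 14 controls and 223 to 272 CPM in the day 26 controls). Insig1, which retains SREBPs in the endoplasmic reticulum, fell (-0.98 ± 0.18), as did Stard4, a sterol carrier (-1.94 ± 0.37). On the efflux side Abca1, the cholesterol exporter, lay at 128, 159 and 179 CPM and 239.8, 266 and 239 CPM (0.68 ± 0.13), Apoe rose by 1.51 ± 0.18 and Cyp7b1, an oxysterol hydroxylase with 0.233 to 0.318 CPM in controls and 2.25 to 3.19 CPM in KPC, by 3.33 ± 0.63. The rises numbered 3 without any 1 control, 3 without KPC replicate 2 and 4 without KPC replicate 3. Srebf2 kept the call in every alternative, and the covariate ended the calls of Insig1, Abca1, Apoe, Cyp7b1 and Stard4.

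**Figure D5:**
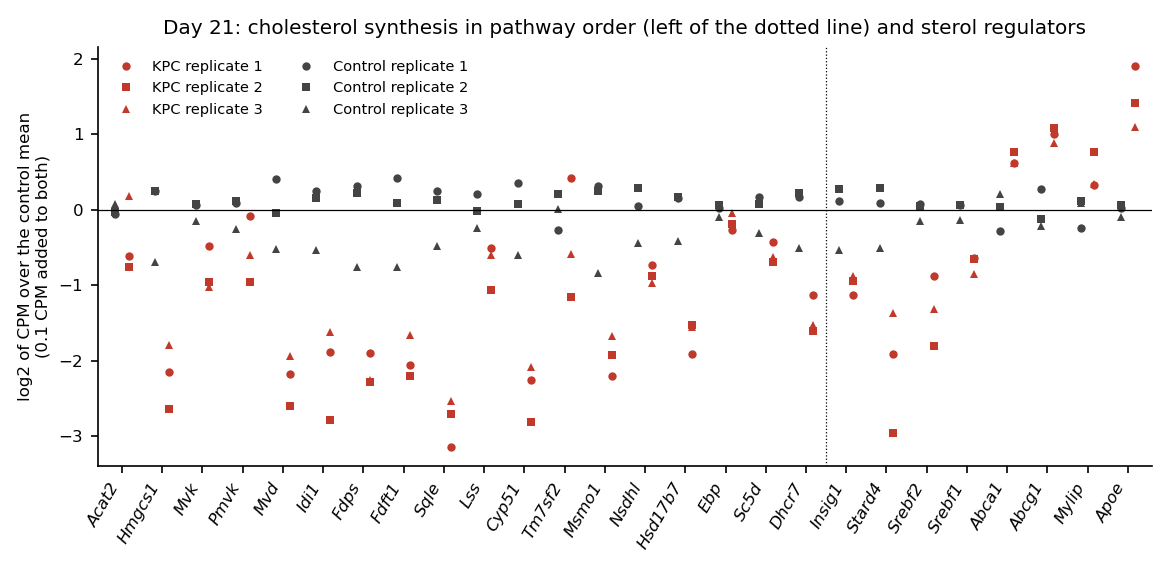
Log2 of each library's CPM over the control mean (0.1 CPM added to both) for 18 cholesterol synthesis enzymes in pathway order, left of the dotted line, and 8 sterol regulators. KPC libraries (red) lie below the controls (grey) for 14 of the 18 enzymes drawn, and control replicate 3 (grey triangle) is the lowest control for most of them.

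Fatty acid synthesis fell in 10 of 26 genes and rose in 4, 53.8% called against 12.5% of all genes. Fasn, fatty acid synthase, lay at 224, 211 and 177 CPM and 87.8, 67.7 and 81.1 CPM (-1.37 ± 0.13), and the desaturase gene Scd2 at 454, 464 and 302 CPM and 179, 114 and 114 CPM (-1.58 ± 0.22, with exons that overlap Mir5114). Both kept the call in every alternative. Fads1 and Fads2, of polyunsaturated fatty acid synthesis, fell (-0.72 ± 0.12 and -1.08 ± 0.21), as did Srebf1, the regulator of fatty acid synthesis whose exons overlap Rai1 (-0.71 ± 0.11). Lipid uptake and storage moved the other way, with 13 of 31 genes higher and 3 lower, 51.6% called (median 0.78, also with Cfd at its lower bound). Plin4, a coat protein of lipid droplets, lay at 1.75, 1.58 and 2.58 CPM and 21.2, 40.8 and 24.3 CPM (3.85 ± 0.30). Fabp4, a fatty acid carrier of adipocytes and endothelium, lay at 39.6, 36.8 and 24.8 CPM and 246, 222 and 128 CPM (2.56 ± 0.29). Lpl, lipoprotein lipase, lay at 784, 711 and 709.96 CPM and 1223, 1769 and 1530.3 CPM (1.04 ± 0.14). No KPC value overlapped a control for these. Cfd, adipsin, had no count in the controls and 3.99, 4.31 and 3.06 CPM in KPC. The summed adipocyte markers were at most 1.01 CPM in controls and 6.74, 7.57 and 6.93 CPM in KPC, with Lep at 0 in all 6 libraries, and Pparg, the adipogenic regulator, was not called (1.11 ± 0.39, and -0.26 with the endothelial covariate). Pdk4, a fasting-induced kinase that limits glucose oxidation, lay at 23.3, 14.02 and 17.6 CPM and 57.7, 141 and 106 CPM (2.47 ± 0.36). It was 1 of 4 genes called among 32 for PPAR, fasting and fatty acid oxidation, a share of 12.5%, the same as among all genes tested. The higher calls of fatty acid synthesis were at most 1 without any 1 control and 2 without KPC replicate 2, and the lower calls 6 and 5 without control replicates 1 and 2. Those of the PPAR list were 2 without control replicate 2 and 7 without KPC replicate 1. With the covariate Srebf1, Fads2, Fads1 and Pdk4 lost the call.

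Of 33 genes of glucose uptake and glycolysis 4 rose and 4 fell, 24.2% called against 12.5% of all genes. Pfkfb3, which raises glycolytic flux through fructose 2,6-bisphosphate, lay at 7.66, 7.92 and 10.1 CPM and 34.4, 47.8 and 25.3 CPM (2.06 ± 0.23), while Pfkfb4 of the same family fell (-1.26 ± 0.22), as did Hk1, a hexokinase (-0.58 ± 0.12). Ldha was at 157 to 182 CPM in controls and 170.4 to 178 CPM in KPC and was not called (0.06 ± 0.10). Among 40 genes of amino acid transport and synthesis 12 rose and 6 fell, 45% called. Glul, glutamine synthetase, lay at 332, 280.2 and 307 CPM and 677, 857 and 734 CPM (1.30 ± 0.12, overlapping Teddm2), and the transporter genes Slc43a1, Slc1a3 and Slc38a2 rose by 1.13 ± 0.15, 1.25 ± 0.18 and 0.90 ± 0.15. Pycr1 and Aldh18a1, which make proline, fell (-2.20 ± 0.29 and -0.85 ± 0.17), as did Mthfd2, of mitochondrial folate metabolism (-1.62 ± 0.27). The glycolysis list had at most 2 higher and 2 lower calls without any 1 control or KPC replicate 2, 2 lower calls without KPC replicate 3 and 7 without KPC replicate 1. The amino acid list had 6 and 7 higher calls without control replicates 1 and 3. Glul and Mthfd2 kept the call in every alternative, and the covariate ended the calls of Pfkfb3, Pfkfb4, Hk1, Slc38a2, Slc43a1, Slc1a3, Pycr1 and Aldh18a1.

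Of 37 genes for iron, haem, zinc and copper 8 rose and 4 fell, 32.4% called against 12.5% of all genes. The metallothionein genes Mt1 and Mt2, which bind zinc and copper, lay at 202, 230.3 and 166 CPM against 517, 745 and 622 CPM (1.65 ± 0.16) and at 263, 278 and 215 CPM against 776, 1046 and 885 CPM (1.84 ± 0.14). Steap4, a metalloreductase induced by inflammation, lay at 289, 319 and 296 CPM and 719, 749 and 764 CPM (1.30 ± 0.10). Its KPC values were close together and above all other controls (355 to 440.1 CPM in the day 14 controls and 298 to 419.8 CPM in the day 26 controls). Cp, ceruloplasmin, rose by 1.99 ± 0.29 (overlapping Hps3) and Lcn2, which binds bacterial iron carriers, by 3.47 ± 0.37. The lower metal calls were 1, 1 and 2 without control replicates 1 to 3, 2 without KPC replicate 2 and 2 with library size alone. Of 44 oxidative defence genes 8 rose and 5 fell (median -0.025), 29.5% called. Without control replicate 3 the calls were 3 higher and 5 lower. Cyp1b1, an oxidase of steroids and xenobiotics, lay at 28.9, 31.5 and 31.4 CPM and 91.5, 214 and 134 CPM (2.26 ± 0.30), and Aldh1a3, a retinaldehyde dehydrogenase, fell (-0.90 ± 0.12). Nqo1 and Gstm1, targets of NRF2, were not called (0.37 ± 0.34 and 0.03 ± 0.11). This list had 3, 5 and 3 higher calls without control replicates 1 to 3 and 5 without KPC replicate 2, and 2, 2, 2 and 3 lower calls without control replicates 1 and 2 and KPC replicates 2 and 3. Lost with the covariate were the calls of Lcn2, Cyp1b1 and Aldh1a3.

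Of 26 known glucocorticoid receptor targets 16 rose and 1 fell (median 1.09), 65.4% called against 12.5% of all genes, and the higher calls numbered 5 with the endothelial covariate and 11 to 17 without each library in turn. Gadd45b, a stress-response gene, lay at 23.8, 29.8 and 27.2 CPM and 93.9, 165 and 118 CPM (2.22 ± 0.19). Glul, Mt1, Mt2 and Cebpd, given above, belong to this list too. Well known markers of the receptor did not pass the test. Tsc22d3, which encodes GILZ, lay at 563, 269 and 473 CPM and 560.01, 975 and 1044 CPM (0.98 ± 0.34, adjusted p 0.12). Fkbp5 lay at 93.3, 75.8 and 74.8 CPM and 186, 166 and 79.4 CPM (0.82 ± 0.31, adjusted p 0.14). Zbtb16 lay at 70.9, 77.1 and 101 CPM and 352, 223 and 118 CPM (1.48 ± 0.42, adjusted p 0.083). The groups overlapped for Tsc22d3 and Fkbp5 and did not for Zbtb16, and with the endothelial covariate Fkbp5 and Zbtb16 turned to -0.55 and -0.25. The receptor gene Nr3c1 was not called (-0.36 ± 0.11). Of the clock genes 3 of 24 rose and 2 fell, 20.8% called against 12.5% of all genes. Arntl, Per1, Per2 and Nr1d1 were not called, and Dbp, a clock output whose exons overlap Sphk2, lay at 17.5, 12.7 and 24.1 CPM and 7.87, 6.25 and 4.78 CPM (-1.52 ± 0.27). Timeless rose by 1.52 ± 0.23. Lower clock calls numbered 1 without each control, higher ones 6 without KPC replicate 1, 5 in DESeq2 and 6 with library size alone. In the prostaglandin pathway 3 of 21 genes rose and 1 fell. Ptgs2, cyclooxygenase 2, lay at 51.7, 69.3 and 62.1 CPM and 273, 249.5 and 205 CPM (1.99 ± 0.14), levels that the controls of other days reached or passed (322 to 462 CPM in the day 14 controls and 201 to 524 CPM in the day 26 controls). The constitutive Ptgs1 fell (-0.83 ± 0.17). The covariate ended the calls of Ptgs1, Dbp and Timeless, and without control replicate 2 Ptgs1 was not called.

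In the list for the unfolded protein response and the integrated stress response 3 of 36 genes rose and 7 fell. Of these 36 genes 27.8% were called, against 12.5% of all genes, and DESeq2 called 13 lower. Atf3 and Ppp1r15a, of the integrated stress response, lay at 166, 193 and 156 CPM against 529, 475 and 412 CPM (1.46 ± 0.13) and at 91.3, 112 and 95.8 CPM against 238, 250.1 and 239 CPM (1.28 ± 0.11, overlapping Tulp2). The endoplasmic reticulum chaperone genes Hyou1, Creld2 and Manf fell (-0.67 ± 0.13, -0.79 ± 0.15 and -0.73 ± 0.14). Atf4, Ddit3 and Xbp1 were not called (0.29 ± 0.10, 0.12 ± 0.17 and -0.03 ± 0.10). The lower calls of this list numbered 4 without control replicate 1 or 2 and 12 without KPC replicate 1. Among 32 cytosolic chaperones 2 rose and 2 fell, 12.5% called as among all genes tested, with the falls in the near-identical pair Hspa1a (-0.91 ± 0.17) and Hspa1b (-0.85 ± 0.14), between which reads cannot be assigned with certainty. Dnajb4, a heat shock co-chaperone, rose (0.92 ± 0.13), and the higher calls were 1 without each library but KPC replicate 1. Of 46 autophagy, lysosome and FoxO genes 13 rose and 33 were not called (median 0.17), 28.3% called. Gabarapl1, of the autophagosome coat, lay at 160.5, 165 and 165 CPM and 218, 319 and 289 CPM (0.75 ± 0.13) and kept the call in every alternative. The muscle atrophy ligase gene Fbxo32 was not called (1.07 ± 0.44), with KPC replicate 2 highest at 17.3, 54.5 and 22.5 CPM in replicates 1 to 3. The autophagy calls numbered 3, 1 and 3 without control replicates 1 to 3, 7 without KPC replicate 3 and 1 with the covariate. Of 38 proteasome subunits 1 fell and 37 were not called, 2.63% called. Among 46 genes of ribosome biogenesis and translation 8 rose, 17.4% called against 12.5% of all genes, with Eif1a, an initiation factor, at 0.69 ± 0.14. The rises numbered 1 without each control and without KPC replicate 2, 3 without KPC replicate 3 and 12 with library size alone. The covariate ended the calls of Hyou1, Creld2, Manf, Hspa1b, Hspa1a and Eif1a.

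Of 41 actin cytoskeleton and contractile genes 12 fell and 1 rose, 31.7% called against 12.5% of all genes. Fhl1, a LIM domain protein, lay at 309, 315 and 286 CPM and 141, 133 and 152 CPM (-1.09 ± 0.10). Cnn2, calponin 2, lay at 36.4, 36.3 and 34.3 CPM and 22.5, 13.6 and 15.05 CPM (-1.06 ± 0.18). Actg1, cytoplasmic actin, fell (-0.83 ± 0.14) (overlapping Mir6935). The myofibroblast and smooth muscle marker Acta2 was not called (0.94 ± 0.69), with 19.8, 20.9 and 30.4 CPM in controls and 84.9, 38.3 and 13.8 CPM in KPC, and it turned to -2.07 under the endothelial covariate. Summed mural markers were 284 to 304 CPM in controls and 527, 290 and 205 CPM in KPC. Of 36 cell cycle and replication genes 7 rose and 4 fell, 30.6% called. Cdkn1a, the inhibitor p21, lay at 161, 113 and 129.9 CPM and 272, 312 and 319 CPM (1.16 ± 0.14), and the antiproliferative genes Btg1 and Btg2 rose by 1.46 ± 0.13 and 1.55 ± 0.15. Mki67, a proliferation marker, was at 3.85 to 5.64 CPM in controls and 1.58 to 3.02 CPM in KPC and was not called (-0.98 ± 0.38). Without any 1 library other than KPC replicate 1 the cell cycle list had 4 higher calls, and its lower calls were at most 2 without any 1 control, 2 without KPC replicate 3 and 7 without KPC replicate 1. Of 45 interferon and class I presentation genes 7 rose and 2 fell, 20% called against 12.5% of all genes. The falls were at most 1 without any 1 library other than KPC replicate 1, where they were 4. Irf1, a transcription factor that interferon-gamma and NF-kappaB induce, lay at 98.8, 134 and 112 CPM and 308, 209 and 196 CPM (1.05 ± 0.18), and the class I gene H2-Q4 rose by 1.20 ± 0.12, with close copies that share reads. The type I response genes Isg15 and Ifit1 were not called (0.43 ± 0.48 and -0.19 ± 0.33), and Isg15 turned to -0.94 with the covariate. Btg1, Btg2, Cdkn1a and Cnn2 kept the call in every alternative, and the covariate ended the calls of Fhl1, Actg1, Irf1 and H2-Q4.

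Among the markers of the progenitors themselves the surface genes parted. Thy1, a surface glycoprotein of fibroblast subsets, lay at 570.3, 569.5 and 500.2 CPM and 192, 109 and 194 CPM (-1.73 ± 0.20). Cd34, a sialomucin of resting progenitors whose exons overlap Gm16897, lay at 2431, 2539 and 2261 CPM and 1248, 849.9 and 1178 CPM (-1.14 ± 0.15). Vim, vimentin, fell (-0.59 ± 0.12). Mme, which encodes the peptidase CD10, rose (131, 134 and 131 CPM against 167, 211 and 240.1 CPM, 0.64 ± 0.13), and Pdgfrb and Hic1 were not called (0.04 ± 0.11 and -0.34 ± 0.22). Of 19 genes 3 rose and 5 fell, 42.1% called against 12.5% of all genes. The rises numbered 1 without any 1 library but KPC replicate 1. Mme kept the call in every alternative, and the covariate ended the calls of Cd34, Thy1 and Vim.

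The calls were also set beside the 7 controls of days 14 and 26, each day scaled within its own table and with no test. Of 837 genes called higher and counted in all 3 tables, 476 (56.9%) had all 3 KPC values of day 21 above every one of those 7 controls, and of 803 called lower 478 (59.5%) had all 3 below them. With 1 scaling over all 20 libraries the counts were 503 and 430. Apod, C4b, Steap4, Cxcl12, Osmr and Gpx3 are among the higher genes that cleared the other controls, and Col3a1, Col6a2, Fbn1, Thy1 and Sqle among the lower. The day 21 controls themselves lay outside the other controls, on the side away from KPC, in 86 (10.3%) of the higher and 50 (6.23%) of the lower calls, and Il6 and Ptx3 are such genes.

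The 3 KPC libraries differed in how far they had moved. KPC replicate 2 lay farthest from the control mean in 61.3% of the 839 higher and 74.9% of the 804 lower calls. It is also the only KPC library whose code has another leading number, so that code and its distance cannot be told apart. KPC replicate 1, which had the highest summed endothelial, macrophage and myofibre markers, was farthest in 25.5% and 11.3%. Over all genes the median SD of log2 CPM was 0.17 among controls and 0.23 among KPC libraries, and it was larger in KPC for 64.7% of genes. Il6, Ptx3, Socs3 and Myc were nearly level among the KPC libraries, while Igfbp3, Apod and C4b were highest, and Col3a1 lowest, in KPC replicate 2.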

How the data were processed

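RNA was sequenced from 6 freshly sorted samples, 3 per group, as stranded paired libraries, and the values are the read counts per gene that the authors deposited in 1 table for day 21. The submitters' processing notes name bcl2fastq 2.20, Bowtie, STAR, DESeq2 1.36.0, R 4.2.1 and mm10, with no role for each. Which program counted reads, with which strand setting and annotation, is not given in the sources used here, so overlapping genes, which are named as such, and close copies are uncertain. Of 24419 genes, 25 have symbols turned into dates. They stayed in the fit and are not named.

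Counts were filtered with filterByExpr (minimum count 10, minimum total 15), scaled by TMM and tested with edgeR 4.0.16 (quasi-likelihood, limma 3.58.1, R 4.3.3), KPC against control over these 6 libraries with no covariate. P-values were adjusted by the Benjamini-Hochberg method over 13154 genes, and a gene is called at an adjusted p under 0.05. P-values set the group difference against the spread between these 6 libraries, moderated over genes, and do not cover a batch behind the library codes. Counts for the 13154 genes were simulated in 5 runs with 200 genes changed in each. They were drawn independently, with the same dispersion in both groups. The fit recovered 85.6% of genes changed 4-fold and 63.0% of those changed 2-fold, with 10.8 false calls a run on average. The real SD was larger in KPC for 64.7% of genes, so these rates need not hold for the real calls. Alternatives were DESeq2 1.42.0, limma-voom with quality weights, DESeq2 size factors, library size alone, other filters, thinned counts, the replicate number as a block, the endothelial covariate and leaving out each library.

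The members and the 47 gene lists and 13 marker lists were chosen with earlier results of these data known. Genes named are the 12 with the largest gain and loss in CPM among those called, the 10 with the largest rise and fall (mean log2 CPM at least 1, no overlap), anchors of each list and up to 6 called members per direction, 488 in all, of which not every one is printed, and a few genes are not reported here. Gene positions are from GENCODE vM21 (mm10), and promoters from RefSeq (GRCm38.p6). Tables were made with Python 3.11.15 and pandas 2.3.3, and plots with matplotlib 3.10.9.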

Additional observations from a re-analysis of the deposited data

How the results depend on the processing

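The count of 1643 called genes stayed within 1.5 times under other scalings, tests, filters and thinned counts, from 1629 (thinned) to 2328 (limma-voom), and DESeq2 called 2264, all 1643 among them. The endothelial covariate left 228 calls, 132 higher and 96 lower. The covariate itself does not overlap between the groups, and that fit has 1 residual degree of freedom fewer. Leaving out 1 library gave 717 to 2644 calls (374 to 1301 higher, 343 to 1343 lower), fewer without a control and most without KPC replicate 1. Deviations from the group means correlated little between same-numbered control and KPC libraries (r 0.04, -0.06 and -0.003). Differently numbered libraries gave r from -0.07 to 0.08. With 3 libraries a side this cannot show whether the numbers pair anything. The fit with the replicate block called 1545 genes, 795 higher and 750 lower. Of 384 called named genes, 85 kept the call in every alternative, 285 lost it with the covariate, 21 with the block, 118 to 145 without 1 control and 10 to 81 without 1 KPC library. Under the covariate 27 named genes changed sign, and 48 did so under at least 1 alternative. Those called in either of the fits compared were 7, all under the covariate, at -0.11 for Jak3, 0.25 for Inhba, -0.25 for Id1, -0.19 for Timp4, -0.0739 for Scarb1, -0.0202 for Ldhb and -2.07 for Acta2, and the cause was not tested. Shares of counts without mitochondrially encoded genes were not run, since the table lists none by that name. Depth limits genes of a few counts, such as Cyp7b1 and Cfd, where folds have wide errors or are not given.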

Other observations

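Of 50 genes of axon guidance and cell contact 9 rose and 4 fell (median -0.09), where 12.5% of all genes were called. Nrp1 and Nrp2, the neuropilins that bind semaphorins and VEGF, lay at 173, 230.1 and 200.03 CPM against 316, 529 and 435 CPM (1.08 ± 0.18) and at 29.5, 36.4 and 31.6 CPM against 59.5, 78.5 and 80.4 CPM (1.16 ± 0.14), and both kept the edgeR call in every alternative. Slit3, a guidance ligand, rose by 0.53 ± 0.12, and its receptor gene Robo1 fell (-1.06 ± 0.17). The semaphorin gene Sema3c fell (-1.15 ± 0.16) while Sema6a and Sema3g rose by 1.30 ± 0.15 and 2.17 ± 0.34, the latter at 2.93 to 4.66 CPM in controls and 24.1, 18.5 and 9.27 CPM in KPC replicates 1 to 3. The endothelial covariate ended the calls of Sema3c, Slit3, Sema6a, Sema3g and Robo1. The higher calls numbered 4 and 5 without control replicates 1 and 2, and the lower calls 8 without KPC replicate 1.

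Of 23 imprinted growth genes 4 rose and 4 fell (median -0.12), 34.8% called against 12.5% of all genes. Dlk1, a Notch-like inhibitor of adipogenesis, lay at 2.57, 3.63 and 2.78 CPM in controls and 11.96, 7.74 and 7.69 CPM in KPC (1.61 ± 0.30), and Peg3, a zinc finger gene, at 57.9, 50.3 and 78.98 CPM and 118, 197 and 137 CPM (1.27 ± 0.22). Ndn, which encodes necdin, fell (-0.86 ± 0.15), as did Cdkn1c, the inhibitor p57 (-0.52 ± 0.13). H19 and Igf2, neighbours in 1 imprinted cluster, were not called (-0.81 ± 0.44 and 0.25 ± 0.20). The covariate ended every call named here, those of Cdkn1c, Peg3, Dlk1 and Ndn, and without any 1 library other than KPC replicate 1 the list had 2 to 4 calls in each direction. Leaving out 1 library ended the calls of Cdkn1c without control replicate 1 or 3 or KPC replicate 2 or 3.

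Over all called genes with a promoter in the RefSeq table, the TATA box letters TATAAA stood within 250 bases before the start, on either strand, in 10.4% of 625 higher genes and 5.38% of 595 lower genes, against 6.24% of all 9967. The letters of a STAT site (TTCCNGGAA) stood in 1.12% of the higher, 0.336% of the lower and 0.963% of all promoters, and the E-box CACGTG in 7.52, 6.72 and 8.42%. These shares were not tested.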
